A study of Saccharomyces cerevisiae with 12 samples.

Results

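The enzymes that carry glucose carbon through glycolysis, the pentose phosphate pathway and glycerol synthesis were followed in zinc-deficient budding yeast. They were taken by gene identifier: the enzymes from HXK1 to PYK2 along glycolysis, the gluconeogenic enzymes FBP1 and PCK1, the pentose phosphate enzymes and the 4 enzymes of glycerol synthesis. This gave 34 genes of the 6660 features in the count table, and all 34 had enough reads to be tested. The smallest of their values was 106 counts in a library.

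RNA was sequenced from diploid cells of the BY4743 laboratory background in 3 strains, each with 4 libraries. These were the wild type (WT), a strain lacking ATG1 (atg1), which encodes the protein kinase that starts autophagy, and a strain lacking ATG41 (atg41), also named ICY2, whose product is needed for full autophagy. All 3 strains were first grown in zinc-rich medium, then washed 3 times and kept at 30 °C for 8 h in medium low in zinc, so that zinc deficiency was common to every library and no zinc-replete culture enters the comparisons. Whether the 4 libraries of each strain were separate cultures is not stated in the labels, and p-values therefore measure the spread between these libraries, which may be technical.

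Glycolysis splits glucose into pyruvate. Its first steps spend ATP, and its later steps, from glyceraldehyde-3-phosphate dehydrogenase to pyruvate kinase, return ATP and NADH. The pentose phosphate pathway starts from glucose 6-phosphate: its oxidative branch makes NADPH and ribulose 5-phosphate, and its non-oxidative branch exchanges sugar phosphates with glycolysis. Glycerol is made from the glycolytic intermediate dihydroxyacetone phosphate and lets yeast balance NADH and osmotic pressure. Budding yeast has paralogous genes for many of these steps, often one abundant in glucose and another induced by glucose shortage or stress. The aldolase of yeast, encoded by FBA1, is an enzyme that contains zinc.

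In the oxidative branch 1 of 5 genes rose and 2 fell in atg41 against WT, where 29.9% of all genes rose and 35.9% fell. Promoters of these 3 genes are shown because their changes went in both directions. ZWF1, SOL3 and GND1 encode the main enzyme of 3 successive steps (glucose-6-phosphate dehydrogenase, 6-phosphogluconolactonase and 6-phosphogluconate dehydrogenase). Each has at least 2 matches to CGGNNNTA, a sequence bound by Stb5, an activator of pentose phosphate genes, in the 300 bases that end 101 bases before the start codon. The windows are from the RefSeq assembly R64, each written 5′ to 3′ on the strand of its gene, at chrXIV:198044-198343 (minus strand) for ZWF1, chrVIII:423324-423623 (plus strand) for SOL3 and chrVIII:470560-470859 (plus strand) for GND1. Capitals mark a match on either strand, 3 in ZWF1 and 2 in each of the others. Part of the SOL3 window is coding sequence of YHR162W, and part of the GND1 window is coding sequence of YHR182W.
ZWF1: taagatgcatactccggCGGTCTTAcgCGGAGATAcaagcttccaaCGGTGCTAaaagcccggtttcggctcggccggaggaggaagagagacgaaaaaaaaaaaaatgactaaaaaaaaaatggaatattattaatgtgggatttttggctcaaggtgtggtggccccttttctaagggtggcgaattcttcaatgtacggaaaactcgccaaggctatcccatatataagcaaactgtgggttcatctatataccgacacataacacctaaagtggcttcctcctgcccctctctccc
SOL3: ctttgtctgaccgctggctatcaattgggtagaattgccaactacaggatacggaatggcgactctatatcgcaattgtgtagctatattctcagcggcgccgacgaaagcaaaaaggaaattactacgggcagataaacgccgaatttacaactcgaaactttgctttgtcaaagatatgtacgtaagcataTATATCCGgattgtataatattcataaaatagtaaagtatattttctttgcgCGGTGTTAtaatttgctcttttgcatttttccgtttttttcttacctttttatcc
GND1: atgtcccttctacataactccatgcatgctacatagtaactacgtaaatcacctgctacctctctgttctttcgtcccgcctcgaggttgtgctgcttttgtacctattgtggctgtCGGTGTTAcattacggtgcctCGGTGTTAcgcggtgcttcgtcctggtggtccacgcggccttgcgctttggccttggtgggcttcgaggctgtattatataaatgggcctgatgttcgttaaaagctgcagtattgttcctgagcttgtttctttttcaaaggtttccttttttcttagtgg

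The motif was searched on both strands in the same window of 6001 genes and was present in 24.4% of them. It was in the window of 8 of the 34 enzyme genes, which were GND1, GND2, GPD2, HXK1, SOL3, TAL1, TKL1 and ZWF1. TAL1, whose window is not shown, had 4 matches. The share of all windows with more than 1 match was not counted. Of the other 6 motifs searched, the Gcr1 core CTTCC was in 21 members against 47.0% of all windows and the stress response element AGGGG in 18 against 23.5%. The Cbf1 and Tye7 motif CACGTG was in 4 members (4.55% of windows), the Met31 and Met32 motif TGTGGC in 5 (9.10%) and the Cat8 and Sip4 motif, CGG and GGA with 6 bases between them, in 1, GPD1 (4.60%). The Zap1 motif, ACCTT and AAGGT with 1 base between them and bound by the zinc-responsive activator of yeast, was in none of the members' windows (0.083% of windows). A Gcr1 core overlapped a stress response element in GPD1 and in GPD2. A match is a string of letters and was not tested as a binding site.

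The depth was 9623157 to 11247182 expected counts per library, with 6195 genes passing the filter on low counts. Values called CPM below are counts scaled by library total and by the edgeR TMM factor, and serve to compare a gene between libraries. TPM, the authors' measure of transcript abundance, is also scaled by length and serves to compare genes. Log2 fold changes are given ± SE, means ± SD, n is 4 libraries per strain, and a gene is said to have risen or fallen when its edgeR adjusted p was under 0.05. The deleted genes bore out the labels. ATG1 had 93.2 to 109 CPM in WT and 0 in the 4 atg1 libraries, and ATG41 had 660.1 to 762 CPM in WT and a single count in 1 of the 4 atg41 libraries. Each of 17 markers of haploid and mating cells had at most 46.0 TPM in any library, the highest being SAG1 at 30.2 to 46.0 TPM. Summed TPM of the a-specific markers was 45.8 to 55.2 in WT, 45.4 to 91.4 in atg1 and 21.5 to 30.0 in atg41. That of the alpha-specific markers was 60.2 to 73.4, 54.1 to 74.4 and 75.5 to 83.5 in the same order, and that of the haploid-specific markers 61.0 to 68.0, 48.6 to 63.6 and 40.2 to 43.8. Their part in the results was not tested. Replicate 1 of atg1 stood apart. Compared with any other atg1 library, its counts gave a chi-square divided by the number of genes of 33.0 to 55.3, where pairs of libraries without it gave 3.43 to 9.11 within a strain.

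In the absence of ATG41, 15 of the 17 genes of glycolysis rose, while genes of the pentose phosphate pathway changed in both directions. The exceptions in glycolysis were the phosphofructokinase genes PFK1, which passed in some alternative fits, and PFK2. Of the 34 members 23 rose, 3 fell and 8 did not pass the test in atg41 against WT. Over all genes tested the background was large, with 29.9% rising and 35.9% falling. With libraries scaled to equal totals in place of TMM factors the median over all genes went from -0.04 to -0.17, 20.2% of all genes rose and 45.5% fell, and 20 members rose and 5 fell. The median log2 fold change was 0.48 over the members and -0.04 over all genes. At least 2-fold rises were seen for TDH2, PCK1, GLK1, HXK1, ENO2, GPM1, PGK1 and ZWF1, 8 members against 4.05% of all genes, and at least 2-fold falls for GND1 and RKI1, against 6.76% of all genes. The libraries of atg41 all lay above those of WT for 23 members (30.1% of all genes) and all below for 4 (35.2%). Without atg1 replicate 1 in the fit, which adds to the shared estimate of spread, 24 members rose and 5 fell, where 31.9% of all genes rose and 38.1% fell. Each library pools the cells of a culture, so fewer cells of one kind and less RNA per cell cannot be told apart in these values.

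**Figure D1:**
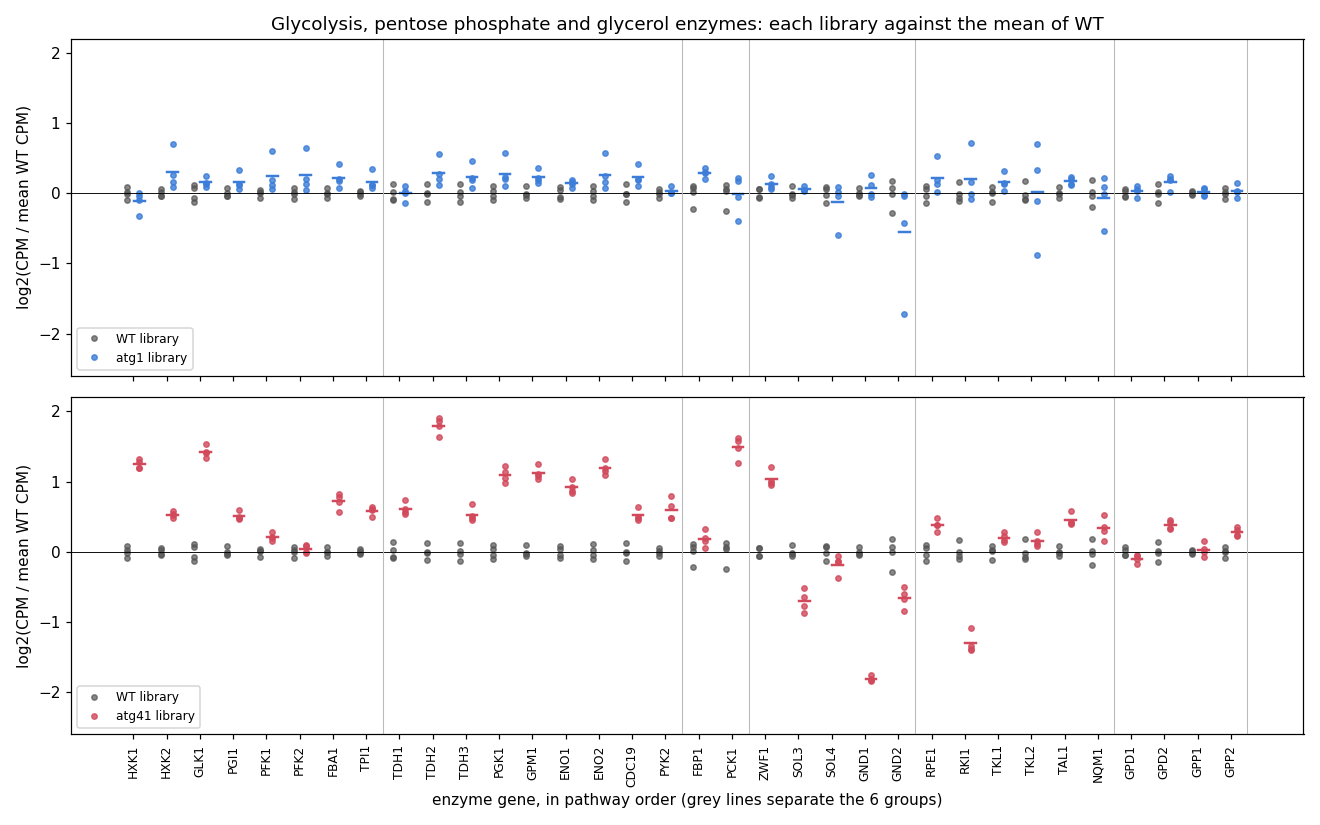
Each point is a library, and its height is the log2 of its CPM over the mean CPM of the 4 WT libraries. Genes are in pathway order, grey lines separate the 6 groups of enzymes, coloured bars are means of the 4 points, and WT libraries are grey in both panels. In atg1 (upper panel) log2 fold changes run from -0.40 for GND2 to 0.32 for HXK2, with a median of 0.16 and 30 of 34 above 0, and single low or high points are seen. In atg41 (lower panel) TDH2 is highest at a log2 fold change of 1.80 and GND1 lowest at -1.81.

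In the length-scaled TPM the 17 glycolytic enzymes together made up 7.90% to 8.50% of the total TPM in the WT libraries. They made up 8.56% to 9.13% in atg1 and 13.8% to 15.1% in atg41, so that the atg41 mean was 1.77 times that of WT. The 11 pentose phosphate enzymes summed to 3623 ± 60.5 TPM in WT and 4190 ± 147 in atg41, a ratio of 1.16. The 4 enzymes of glycerol synthesis summed to 2067 ± 26.8 TPM in WT and 2205 ± 114 in atg41, a ratio of 1.07. In these sums each glycolytic library of atg41 lay above every library of WT and atg1.

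**Figure D2:**
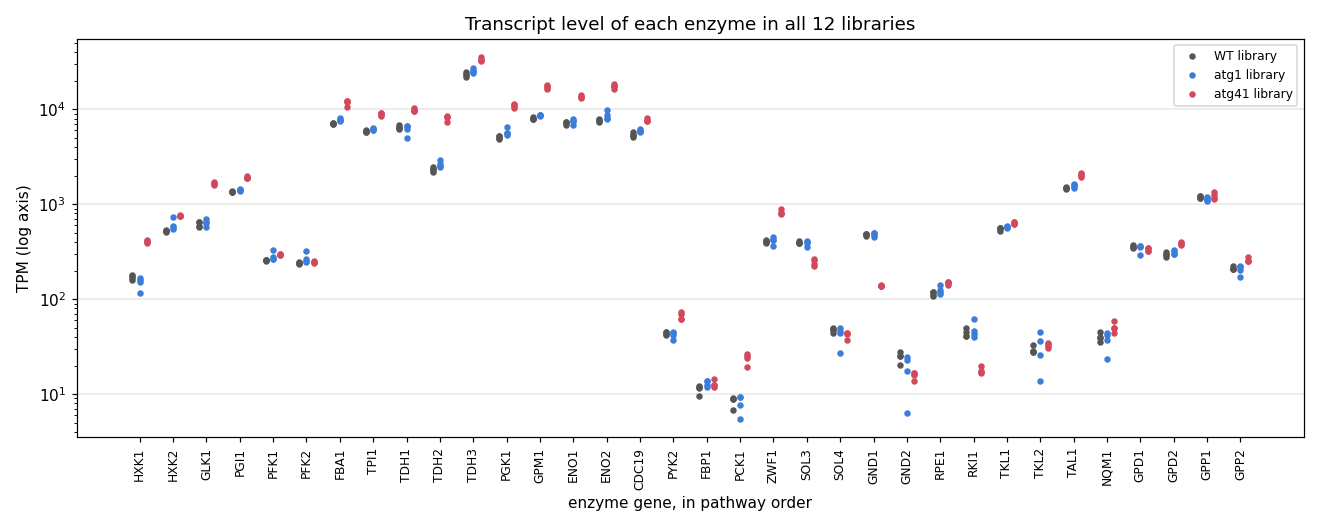
Each point is the authors' TPM of a gene in a library on a log axis, with the strains side by side and genes in pathway order. The levels span from TDH3, at a mean of 23210 TPM in WT, to PCK1, at 8.41 TPM, and the atg41 points lie clearly above WT for most glycolytic genes and below it for GND1, SOL3 and RKI1.

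Sugar phosphorylation showed a large rise for 2 of its 3 kinases. GLK1 (YCL040W) encodes glucokinase, HXK1 (YFR053C) and HXK2 (YGL253W) the hexokinases, of which HXK2 is the main one in glucose-grown cells. GLK1 had 1048, 923, 883 and 1017 CPM in WT, 1072, 1056, 1033 and 1145 in atg1 and 2563, 2605, 2802 and 2447 in atg41. The atg41 libraries were far above the other 8, and GLK1 rose by 1.43 ± 0.07 (log2, edgeR adjusted p = 5.19e-10). HXK1 had 263, 243, 257 and 275 CPM in WT, 207, 244, 260 and 253 in atg1 and 630, 591, 648 and 595 in atg41, a rise of 1.25 ± 0.07 (2.57e-09) with no overlap of groups. HXK2 rose less, by 0.53 ± 0.11 (5.09e-04), from 777 to 831 CPM over the WT libraries to 1112 to 1195 over those of atg41. Per length, the 3 kinases together had 1309 ± 31.4 TPM in WT and 2814 ± 54.3 in atg41, 2.15 times as much.

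The next steps rose by less, and phosphofructokinase did not pass in the main fit. PGI1 (YBR196C), the phosphoglucose isomerase at the fork of glycolysis and the pentose phosphate pathway, rose by 0.51 ± 0.07 (edgeR adjusted p = 1.18e-05). PFK1 (YGR240C) and PFK2 (YMR205C) encode the subunits of phosphofructokinase, the committing and allosterically controlled step. PFK1 had 850.1, 830, 787 and 833 CPM in WT and 920.3, 945, 1004 and 955 in atg41, a log2 fold change of 0.21 ± 0.10 (0.0667). PFK2 had 786, 743, 703 and 758 CPM in WT and 747, 790, 799 and 738 in atg41, at 0.04 ± 0.10 (0.749). The PFK1 libraries of atg41 all lay above WT and those of PFK2 overlapped it, and without atg1 replicate 1, whose PFK1 value was 1253 CPM, PFK1 passed (0.000798). PFK1 also passed as higher by DESeq2 (adjusted p = 0.0314) and by limma on log2 TPM (adjusted p = 0.0123). In edgeR it passed with DESeq2 size factors (0.0435) or with only the 2 strains compared in the fit (0.000288). Summed TPM of the subunits was 497 ± 8.08 in WT and 544 ± 3.95 in atg41. FBA1 (YKL060C), the zinc-containing aldolase, had 8221, 7795, 7485 and 7825 CPM in WT and 12820, 13460, 13890 and 11600 in atg41. It rose by 0.73 ± 0.08 (1.83e-06), with the groups well apart. TPI1 (YDR050C), triose phosphate isomerase, rose by 0.59 ± 0.07 (2.57e-06). Of these 8 genes of the preparatory phase 6 rose and 0 fell, with a median of 0.56, beside 29.9% and 35.9% of all genes.

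All 9 genes of the payoff phase rose in atg41, with a median log2 fold change of 0.92. Over all genes 29.9% rose, and the median was -0.04. The largest rise was in TDH2 (YJR009C), which with TDH1 (YJL052W) and TDH3 (YGR192C) encodes glyceraldehyde-3-phosphate dehydrogenase. TDH2 had 2566, 2351, 2157 and 2319 CPM in WT, 3472, 2691, 2537 and 2835 in atg1 and 8160, 8516, 8770 and 7298 in atg41. Its atg41 values were more than those of any other library by a wide margin, and the rise was 1.80 ± 0.10 (edgeR adjusted p = 1.39e-09). TDH3, the most abundant member, had 21480 to 25660 CPM in WT and 32090 to 37390 in atg41, a rise of 0.53 ± 0.09 (7.58e-05). TDH1 rose by 0.61 ± 0.07 (4.71e-06). Their sum, which does not depend on how reads were divided among the 3 genes, went from 32030 ± 1505 TPM in WT to 51580 ± 2118 in atg41, 1.61 times as much. The coding sequences of TDH2 and TDH3 are 95.8% identical with a stretch of 173 identical bases, and those of TDH1 and TDH2 share a stretch of 129, both longer than the 100 bp reads. Values of the single TDH genes are therefore uncertain.

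The remaining payoff genes rose by 0.52 for CDC19 (YAL038W) to 1.19 for ENO2 (YHR174W) on the log2 scale. PGK1 (YCR012W), phosphoglycerate kinase, had 7026, 6388, 6138 and 6749 CPM in WT and 13690, 14510, 15310 and 13010 in atg41, a rise of 1.10 ± 0.09 (edgeR adjusted p = 1.53e-07). GPM1 (YKL152C), phosphoglycerate mutase, had 6161, 5621, 5493 and 5701 CPM in WT and 12380, 12100, 13690 and 11780 in atg41, a rise of 1.12 ± 0.07 (5.76e-09). In both genes every atg41 library was above every other library. ENO1 (YGR254W) and ENO2 encode enolase and rose by 0.92 ± 0.06 (1.54e-08) and 1.19 ± 0.10 (1.11e-07). Their coding sequences are 94.8% identical and share a stretch of 112 bases, so that single values are uncertain here too, and the enolase genes together had 14890 ± 501 TPM in WT and 31170 ± 1244 in atg41. CDC19, the main pyruvate kinase, rose by 0.52 ± 0.08 (3.84e-05), from 7803 to 9341 CPM in WT to 11710 to 13320 in atg41. Its glucose-repressed paralog PYK2 (YOR347C) rose by 0.61 ± 0.07 (1.95e-06) from 69.8 ± 2.46 to 107 ± 11.4 CPM.

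Gluconeogenesis bypasses the irreversible steps of glycolysis, and its genes are repressed by glucose. PCK1 (YKR097W), phosphoenolpyruvate carboxykinase, had 12.3, 15.2, 14.9 and 15.9 CPM in WT, 11.1, 14.0, 16.5 and 16.99 in atg1 and 40.7, 43.5, 35.1 and 44.8 in atg41. The atg41 libraries stood clear of the others at a low level, 23.6 ± 2.94 TPM, and PCK1 rose by 1.49 ± 0.12 (edgeR adjusted p = 1.28e-07). FBP1 (YLR377C), fructose-1,6-bisphosphatase, had 12.9, 12.1, 12.6 and 10.3 CPM in WT and 12.4, 13.4, 13.8 and 15.1 in atg41. The FBP1 libraries overlapped, at 0.19 ± 0.10 (0.0955).

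The oxidative pentose phosphate branch moved in opposite directions at successive steps. ZWF1 (YNL241C), the first and rate-setting dehydrogenase (chromosome XIV, 196426 to 197943, minus strand of R64, with 1 coding exon), had 669, 616, 613 and 668 CPM in WT. It had 670.2, 705, 680.0 and 759 CPM in atg1 and 1267, 1287, 1484 and 1243 in atg41. ZWF1 was thus higher in every atg41 library, a rise of 1.04 ± 0.07 (edgeR adjusted p = 1.34e-08). GND1 (YHR183W), which forms NADPH at the end of the branch (chromosome VIII, 470960 to 472429, plus strand, with 1 coding exon), had 780.4, 742, 731 and 722 CPM in WT. It had 890.0, 804, 739 and 719 CPM in atg1 and 208, 210.0, 221 and 212 in atg41. All atg41 values were far below the rest and close to each other, and GND1 fell by 1.81 ± 0.07 on the log2 scale (3.89e-11), to 0.286 of WT.

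The lactonase between these dehydrogenases fell as well. SOL3 (YHR163W, chromosome VIII, 423724 to 424473, plus strand, with 1 coding exon) had 311, 285, 278 and 288 CPM in WT, 296 to 311 in atg1 and 159, 169.5, 203 and 185 in atg41. Every atg41 library lay below the other 8, and SOL3 fell by 0.70 ± 0.07 (log2, edgeR adjusted p = 8.18e-07). The minor isozymes of these steps did not pass. SOL4 (YGR248W) had 35.5 ± 2.42 CPM in WT and 31.4 ± 2.84 in atg41 (-0.18 ± 0.12, 0.21), with overlapping libraries, and passed as lower without atg1 replicate 1 (0.036). GND2 (YGR256W), 78.6% identical to GND1 over the coding sequence, had 40.1, 31.4, 38.1 and 43.1 CPM in WT, 11.5, 28.5, 37.9 and 37.3 in atg1 and 23.9, 21.2, 27.0 and 25.1 in atg41. All atg41 values of GND2 were below WT (-0.65 ± 0.28, 0.0558), the atg1 values were widely spread, and the gene passed as lower without atg1 replicate 1 (0.00011) or WT replicate 2 (0.0485).

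Per length, the balance of these steps differed between strains. GND1 and GND2 together had 509 ± 9.71 TPM in WT, 497 ± 19.2 in atg1 and 154 ± 2.82 in atg41, and SOL3 and SOL4 had 446 ± 10.4, 429.9 ± 35.3 and 287 ± 20.2. ZWF1 had 403 ± 12.2 TPM in WT and 829 ± 46.6 in atg41. The ratio of 6-phosphogluconate dehydrogenase to ZWF1 transcripts was 1.27, 1.30, 1.30 and 1.18 in WT, 1.39, 1.22, 1.18 and 1.03 in atg1 and 0.189, 0.186, 0.173 and 0.198 in atg41. This ratio was chosen after its values were seen and has no test, and the atg41 libraries were all far below the others.

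**Figure D3:**
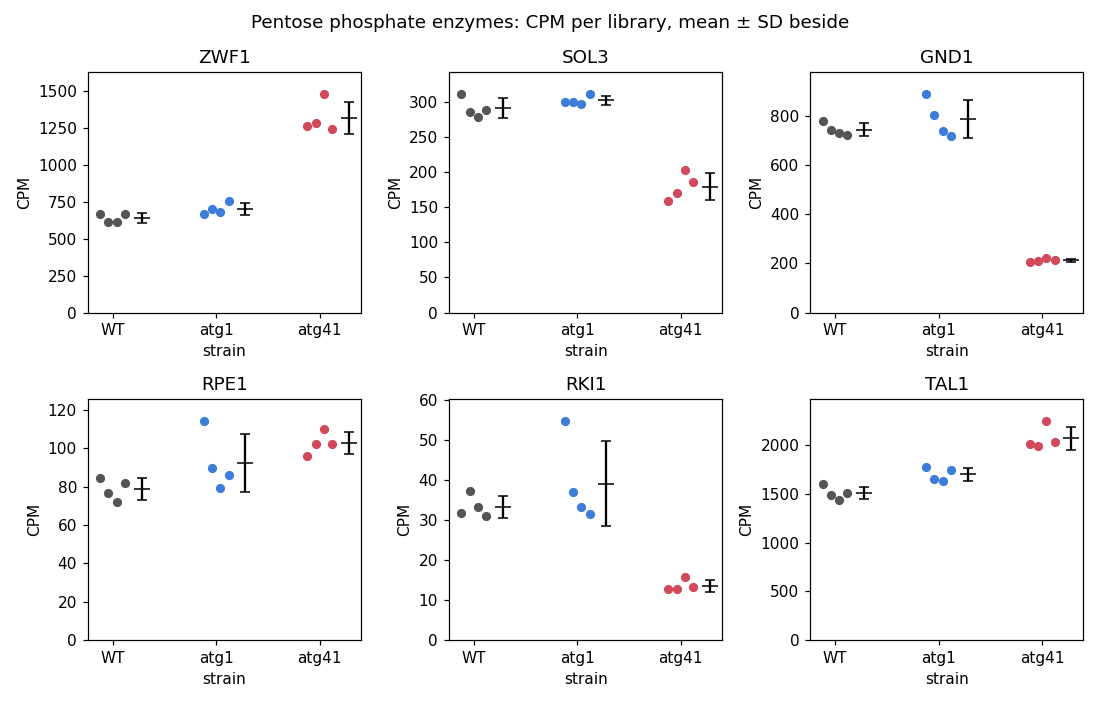
CPM of 6 pentose phosphate genes in each library (points, with the 4 replicates of a strain from left to right) and the mean ± SD of each strain (bars beside the points), on axes that start at 0. ZWF1, RPE1 and TAL1 are highest on average in atg41 and SOL3, GND1 and RKI1 lowest, and a single atg1 library, replicate 1, lies above its group for RPE1 and RKI1.

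In the non-oxidative branch 4 of 6 genes rose and 1 fell, where 29.9% of all genes rose and 35.9% fell. Among these rises, those of TKL1 and NQM1 were lost in some alternative fits. RKI1 and RPE1 (YJL121C) act side by side on ribulose 5-phosphate, as ribose-5-phosphate isomerase and as the epimerase that makes xylulose 5-phosphate. RKI1 (YOR095C, chromosome XV, 503552 to 504328, minus strand, with 1 coding exon) had 31.9, 37.3, 33.3 and 31.0 CPM in WT, 54.9, 37.2, 33.2 and 31.5 in atg1 and 12.6, 12.7, 15.8 and 13.2 in atg41. It was lower in every atg41 library and fell by 1.29 ± 0.17 (log2, edgeR adjusted p = 1.54e-05). RPE1 had 84.4, 76.7, 71.8 and 82.2 CPM in WT and 96.2, 102, 110.1 and 102 in atg41, a rise of 0.38 ± 0.09 (0.00264) without overlap. TAL1 (YLR354C), transaldolase, rose by 0.46 ± 0.06 (1.28e-05), from 1443 to 1600 CPM over the WT libraries to 1994 to 2251 over those of atg41.

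Transketolase and the second transaldolase gene differed less between strains. TKL1 (YPR074C), the main transketolase, had 1278, 1226, 1109 and 1215 CPM in WT and 1325, 1354, 1468 and 1407 in atg41, a rise of 0.20 ± 0.07 (edgeR adjusted p = 0.0193) that was lost with libraries scaled to equal totals (0.235). That scaling moved the median of all genes from -0.04 to -0.17, so changes are read here against the TMM scale. NQM1 (YGR043C), the stress-induced paralog of TAL1, rose by 0.34 ± 0.14 (0.0446) with overlapping libraries, 35.3 to 45.8 CPM in WT and 44.9 to 58.3 in atg41. NQM1 did not pass when any 1 of 8 libraries was left out (replicates 1, 2 and 3 of WT, 2 and 3 of atg1 and 1, 3 and 4 of atg41), and TKL1 did not pass without WT replicate 3 (0.0751) or atg41 replicate 3 (0.0538). TKL2 (YBR117C), the glucose-repressed paralog of TKL1, had 63.8 ± 5.79 CPM in WT and 71.2 ± 4.42 in atg41 and did not pass (0.16 ± 0.25, 0.599).

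Glycerol synthesis showed smaller differences, with 2 of 4 genes rising, beside 29.9% of all genes. GPD1 (YDL022W) and GPD2 (YOL059W) encode the NADH-consuming glycerol-3-phosphate dehydrogenase, GPD1 being the osmotically induced gene and GPD2 the one induced without oxygen. GPD2 had 448, 412, 369.6 and 403 CPM in WT, 485, 463, 412 and 470.2 in atg1 and 516, 545, 557 and 509 in atg41. The atg41 libraries lay above the others, and GPD2 rose by 0.38 ± 0.07 (edgeR adjusted p = 2.37e-04). GPD1 had 438, 414, 416 and 449 CPM in WT and 379 to 415 in atg41 and did not pass (-0.10 ± 0.06, 0.142), although it passed as lower with libraries scaled to equal totals (0.00463) or with trends in base composition and length removed (0.00343). GPP1 (YIL053W) and GPP2 (YER062C) encode the phosphatase that releases glycerol. GPP2 rose by 0.29 ± 0.06 (3.91e-04) from 147 to 164 CPM over the WT libraries to 182 to 199 over those of atg41, and GPP1 stayed at 879 ± 14.4 and 898 ± 62.2 CPM (0.03 ± 0.06, 0.664). The GPP2 call was lost at equal totals (0.0516).

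No isozyme share passed the test after adjustment, and the number whose libraries lay apart was near the background of single genes. The share of each isozyme in the summed TPM of its set was compared between strains with a two-sided exact permutation test over the 4 libraries of each, for 13 shares in each of the 3 comparisons. The smallest p such a test can give is 0.0286. After adjustment over 39 tests a share could pass only if most of the tests reached that p, so a share that did not pass is not shown to be unchanged. In atg41 against WT 9 of the 13 shares had libraries that did not overlap and reached that p, and after adjustment over all 39 tests none passed (lowest adjusted p 0.0656). For single genes the libraries of these strains did not overlap for 65.3% of all genes, so the count is not a result about the isozymes, and the shares below are given as values. The share of TDH2 in TDH2 and TDH3 was 9.09%, 9.32%, 9.12% and 8.94% in WT and 19.9%, 20.4%, 19.0% and 18.5% in atg41. It is uncertain, as are the shares of TDH1 and ENO1, because it depends on how reads were divided among similar sequences. GND2 made up 4.86%, 4.04%, 4.92% and 5.61% of the GND transcripts in WT and 10.3%, 9.10%, 10.8% and 10.5% in atg41. Both shares stood clear of WT in all 4 atg41 libraries. GND2 itself did not rise, at 38.2 ± 4.96 CPM in WT and 24.3 ± 2.44 in atg41, while GND1 fell. Libraries also lay apart in the shares of HXK1 in the hexokinases (24.5% ± 1.28 in WT, 34.8% ± 1.08 in atg41) and GLK1 in the 3 glucose kinases (46.9% ± 1.55 and 58.8% ± 0.944).

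Libraries lay apart for 5 further shares, among them those of PFK1 in phosphofructokinase (51.7% ± 0.396 in WT, 54.7% ± 0.818 in atg41), of SOL4 in the lactonases (10.6% ± 0.592 and 14.7% ± 1.76) and of GPD2 in the glycerol-3-phosphate dehydrogenases (45.5% ± 1.74 and 53.8% ± 1.08). GPP2 in the glycerol phosphatases had 15.02% ± 0.441 and 17.5% ± 1.16, and ENO1 in enolase was the single share of these that was lower in atg41, at 48.5% ± 0.648 and 43.8% ± 0.348. As single genes SOL4 did not pass (-0.18 ± 0.12, log2) and ENO1 rose by 0.92 ± 0.06. The shares of TDH1, PYK2, TKL2 and NQM1 overlapped. In atg1 against WT no share lay apart (0 of 13, lowest adjusted p 0.101), and in atg41 against atg1 8 did. Libraries did not overlap for 13.8% of single genes in the first of these comparisons and for 56.2% in the second.

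**Figure D4:**
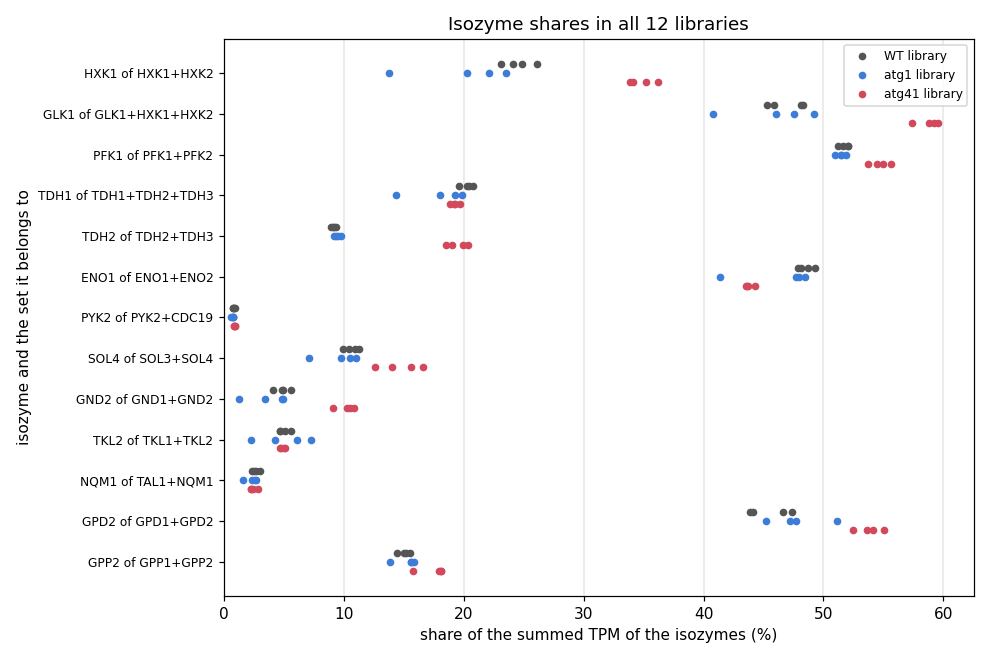
Each point is the share of an isozyme in the summed TPM of its set in a library, in percent. Rows show 13 shares and 3 strains. Shares of TDH1, TDH2 and ENO1 are uncertain, as they depend on how reads were divided among similar sequences. The atg41 points stand clear of WT for 9 shares, among them TDH2, from about 9.12% to 19.5% of TDH2 and TDH3, while atg1 overlaps WT in every row and has single low points, all from replicate 1, for HXK1, TDH1, ENO1 and GND2.

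A group that cuts across the steps holds 8 isozymes known to be repressed by glucose or induced by stress: HXK1, GLK1, TDH1, PYK2, SOL4, GND2, TKL2 and NQM1. Not all were minor in these cells. In WT GLK1 had 615 TPM, against 524 for HXK2 and 170 for HXK1, and TDH1 had 6490 TPM, against 2328 for TDH2. Of the 8 isozymes 5 rose in atg41 against WT and 3 did not pass, with a median log2 fold change of 0.48. Over all genes 29.9% rose and 35.9% fell, and the median over all 34 members was also 0.48. The 3 that did not pass were SOL4 (-0.18), GND2 (-0.65) and TKL2 (0.16). They belong to the pentose phosphate pathway, as does NQM1, whose rise was lost when any 1 of 8 libraries was left out.

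In the absence of ATG1 no enzyme passed the test. Of the 34 members 0 rose and 0 fell against WT by edgeR, where 0.387% of all genes rose and 3.34% fell. Unadjusted p was under 0.05 for 19 members, all with a log2 fold change above 0, and over all genes for 8.68% above 0 and 12.5% below. DESeq2 called 7 members higher (HXK2, FBA1, TDH2, PGK1, GPM1, CDC19 and TAL1), and of the 5474 genes to which it gave an adjusted p 2.45% were higher and 4.79% lower. Log2 fold changes ran from -0.40 for GND2 to 0.32 for HXK2, with a median of 0.16 against -0.01 over all genes. The lowest adjusted p was 0.0849, for GPM1, which had 6161, 5621, 5493 and 5701 CPM in WT and 7402, 6520, 6334 and 6669 in atg1. All 4 atg1 libraries of GPM1 were above WT, with a log2 fold change of 0.23 ± 0.07. The same was true of 9 members, against 4.70% of all genes.

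Replicate 1 often lay at an end of the atg1 range. It was the highest atg1 library for 19 members and the lowest for 10, among them 6 of the 8 glucose-repressed or stress-induced isozymes. Over all genes it was highest for 35.9% and lowest for 38.5%. HXK2, for example, had 1302 CPM in replicate 1 and 847 to 958 in the other 3, and GND2 had 11.5 and 28.5 to 37.9. Without that library 0 members passed (0.515% of all genes rose and 4.59% fell) and the median over the members was 0.12. Without atg1 replicate 3 HXK2 (edgeR adjusted p = 0.039), TDH2 (0.0484) and PGK1 (0.0499) passed as higher, where 1.26% of all genes rose and 6.10% fell.

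The deletion strains were also compared with each other. This comparison shares libraries with those above, so its values are given side by side and not as separate evidence. In atg41 against atg1 20 members rose and 3 fell, where 31.0% of all genes rose and 33.0% fell, with a median of 0.29 over the members and -0.004 over all genes. GND1 fell by 1.89 ± 0.07 (log2, edgeR adjusted p = 2.44e-11), RKI1 by 1.52 ± 0.16 (3.77e-06) and SOL3 by 0.75 ± 0.07 (4.20e-07). TDH2 rose by 1.51 ± 0.10 (8.13e-09), PCK1 by 1.48 ± 0.13 (1.58e-07), HXK1 by 1.35 ± 0.07 (1.20e-09) and ZWF1 by 0.91 ± 0.07 (5.95e-08). HXK2 (0.21 ± 0.11, 0.0993), RPE1 (0.15 ± 0.09, 0.17) and TKL1 (0.04 ± 0.07, 0.607), which had risen against WT, did not pass against atg1. Without atg1 replicate 1 the count was 22 higher and 6 lower, beside 31.7% and 33.5% of all genes, with HXK2 (1.47e-05) and RPE1 (0.0013) added as higher and SOL4 (0.0298), GND2 (0.00195) and GPD1 (0.00804) as lower. PFK2 (-0.24 ± 0.10, 0.0578) passed as lower without atg1 replicate 3 (0.0191) or replicate 4 (0.0383). The rise of NQM1 (0.37 ± 0.14, 0.0316) was lost without atg1 replicate 2 (0.0615) or atg41 replicate 3 (0.0618) or 4 (0.0943).

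The authors' deposited table of comparisons gave the same sign for all 34 members in each comparison. For atg41 against WT the authors' deposited table has 25 members higher and 4 lower, and the call differed from that of the present test for PFK1, GND2 and TKL2. In atg41 against atg1 the authors' deposited table had 19 higher and 3 lower, with GPD2 not called, and in atg1 against WT it had 0 in either direction.

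Other genes of the same pathways were read from 10 lists with 85 genes tested. In atg41 against WT 36 of them rose, 22 fell and 27 did not pass, where 29.9% of all genes rose and 35.9% fell. In atg1 against WT 1 rose and 1 fell, PMI40 (0.24 ± 0.06, edgeR adjusted p = 0.0499) and ABF1 (-0.24 ± 0.06, 0.0484), beside 0.387% and 3.34% of all genes. In atg41 against atg1 39 rose and 24 fell, beside 31.0% and 33.0% of all genes. The counts for single lists below are to be read beside these shares, and no list was tested as a set. From each list the 3 genes with the largest change among those that passed in atg41 against WT are named.

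Regulators of the glycolytic genes gave mixed counts. Of 11, 2 rose and 5 fell in atg41 against WT, with a median of -0.01. GCR1 and GCR2, which encode main activators of glycolytic genes and are named after their values were seen, were at 0.11 ± 0.05 (edgeR adjusted p = 0.0815) and -0.01 ± 0.06 (0.879). MIG1, the repressor of glucose-repressed genes, fell from 151 ± 4.50 to 81.2 ± 14.1 CPM (-0.90 ± 0.12, 1.64e-05). REB1 (-0.76 ± 0.05, 3.15e-09), a general DNA-binding factor, and STD1 (-0.74 ± 0.07, 8.49e-07), a regulator in glucose sensing, also fell. Of the 3 enzymes that make or remove fructose 2,6-bisphosphate, the activator of phosphofructokinase, PFK26 rose (0.52 ± 0.09), FBP26 rose (0.24 ± 0.09) and PFK27 fell (-0.70 ± 0.08).

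Homologs of the glycolytic enzymes, control of gluconeogenesis and entry of acetyl units gave mixed counts. Of 8 homologs tested 4 rose and 0 fell, led by EMI2 (0.94 ± 0.05, edgeR adjusted p = 9.87e-10), a hexokinase-family gene, GPM2 (0.83 ± 0.11), a homolog of GPM1, and SOL2 (0.82 ± 0.08), a homolog of SOL3. Of 13 genes that control gluconeogenesis 3 rose and 2 fell. GID4 (0.26 ± 0.08) and GID8 (0.26 ± 0.08), of the ubiquitin ligase that marks gluconeogenic enzymes for breakdown, rose and SNF1 (-0.26 ± 0.04), the kinase for growth without glucose, fell. Of 4 genes of the glyoxylate cycle and acetate use, MLS1, malate synthase, rose from 11.95 ± 0.646 to 41.0 ± 1.74 CPM (1.78 ± 0.09, 9.87e-10) and ACS1, acetyl-CoA synthetase, rose (0.46 ± 0.07), while MDH2, the cytosolic malate dehydrogenase, fell (-0.79 ± 0.07).

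Of 11 genes of glycerol use and transport 7 rose and 1 fell, with the largest rises in DAK2 (1.33 ± 0.11, edgeR adjusted p = 1.11e-07), dihydroxyacetone kinase, GUT1 (1.18 ± 0.07, 2.67e-09), glycerol kinase, and STL1 (0.83 ± 0.11, 1.5e-05), the glycerol importer. Of 9 genes of osmotic control 3 rose and 4 fell, the largest changes being those of SLN1 (-0.42 ± 0.08), the osmosensor, SSK2 (-0.37 ± 0.06), a kinase of the HOG pathway, and SSK1 (0.26 ± 0.06), its response regulator.

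Among other sources of NADPH the largest change was that of ALD6. This gene of the cytosolic aldehyde dehydrogenase fell from 1014 ± 22.2 to 279 ± 30.7 CPM (-1.86 ± 0.08, edgeR adjusted p = 1.11e-10) beside -1.81 for GND1. In that list of 8, 3 genes rose and 3 fell, with IDP3 (0.74 ± 0.12), the peroxisomal isocitrate dehydrogenase, and YEF1 (0.51 ± 0.10), an NAD kinase, rising. Of 11 genes that control or drain the pentose phosphate pathway 4 rose and 4 fell, among them GRE3 (0.93 ± 0.09), an aldose reductase, RBK1 (0.51 ± 0.06), ribokinase, and XKS1 (-0.49 ± 0.06), xylulokinase. STB5, named after its values were seen because its motif is shown above, rose by 0.33 ± 0.08 (0.00222), from 63.2 ± 3.77 to 79.3 ± 3.65 CPM. Of the genes whose windows are shown, ZWF1 rose and SOL3 and GND1 fell, and a part of Stb5 in these changes was not tested.

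Branches that leave hexose phosphates for other products rose for 6 of 7 genes, with 1 falling and a median of 0.43. INO1, inositol phosphate synthase, which draws on glucose 6-phosphate, had 38.2 ± 4.24 CPM in WT and 111 ± 6.44 in atg41 (1.55 ± 0.11, edgeR adjusted p = 1.88e-08). PMI40, mannose phosphate isomerase, had 215 ± 7.27 and 515 ± 20.9 CPM (1.26 ± 0.06, 5.21e-10). GFA1, the first enzyme of amino sugar synthesis from fructose 6-phosphate, had 377 ± 7.83 and 896 ± 45.3 CPM (1.25 ± 0.05, 1.41e-10). The gene that fell was PGM1, the minor phosphoglucomutase (-0.48 ± 0.05, 2.13e-06), which is named after its value was seen.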

How the data were processed

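Messenger RNA selected by poly-A from 12 libraries was sequenced as single-end 100 bp reads with a kit that does not mark strand, per the labels' protocols, so overlapping genes share reads. The submitters' processing notes name BWA, STAR, RSEM and edgeR. Versions, the genome build and the annotation were not given in the sources used here. Expected counts and TPM per gene were deposited, and the authors' tables of comparisons hold log2 fold changes, likelihood ratios (unit score), p-values and false discovery rates. The sign of the authors' deposited log2 values was turned, using the deleted genes, so that positive means higher in the strain named first. The deposited count table has 12 more columns of sample values, which were not used here.

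Of the deposited expected counts 18.4% were not whole, and all were rounded. The 6195 genes passing filterByExpr (minimum count 10, minimum total 15) were scaled with TMM and tested in edgeR 4.0.16 (R 4.3.3) by the robust quasi-likelihood F test, two-sided, with strain as the only factor and all 12 libraries in 1 fit. P-values were adjusted by Benjamini-Hochberg over all genes, with a threshold of 0.05, and SE is the log2 fold change over the square root of F. The common coefficient of variation was 9.37%. Isozyme shares use the authors' deposited TPM. Alternatives used limma 3.58.1, with a pseudocount of 1 on TPM, and DESeq2 1.42.0. Coordinates and sequences are those of RefSeq R64, 1-based, matched by gene identifier for 34 of 34 members, and motif windows run from 400 to 101 bases before the start codon.

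All 34 members are named, with ATG1 and ATG41, and of each further list the 3 largest changes called in atg41 against WT. The members, lists, tests and alternatives were chosen with earlier results of these data known.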

Additional observations from a re-analysis of the deposited data

Results flagged for a closer look

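Each strain's 4 libraries were examined for a library far from the others in each of the 34 genes, 102 groups in all, and in 2 of them the gap between the extreme library and the next exceeded Dixon's 95% critical share of the group's range. Chance gives about 1 in 20 such groups. TPI1, triose phosphate isomerase, had 5424 CPM in atg1 replicate 1 and 4489 to 4632 CPM in the other atg1 libraries. TAL1, transaldolase, had 2251 CPM in atg41 replicate 3 and 1994 to 2033 CPM in the other atg41 libraries.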

How the results depend on the processing

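The 3 falls in atg41 against WT (GND1, RKI1 and SOL3) and 20 of the 23 rises kept their call under every alternative run, and no gene called reversed its direction. The rises lost at least once were GPP2, NQM1 and TKL1, the last 2 also when a library was left out. PFK1, not called in the main fit, passed as higher with DESeq2, with limma and in other alternatives, and TKL2 with only the 2 strains compared in the fit. In atg41 against atg1 the 3 falls and 19 of 20 rises kept their call, all but NQM1. The number of members higher in atg1 against WT was 0 in edgeR, 7 in DESeq2 and 0 to 3 with a library left out. The number lower in atg41 against WT was 3, and 5 at equal totals, 5 with trends in base composition and length removed and 3 to 5 with a library left out. The number lower in atg41 against atg1 was 3, and 5, 5 and 3 to 6 under the same changes. Over all genes the share lower against WT was 35.9%, and 45.5% at equal totals and 32.2% with trends removed, and against atg1 33.0%, 35.7% and 32.2%. The genes added at equal totals and with trends removed in atg41 against WT were GND2 and GPD1. The cause of these shifts was not tested, and 458 genes tested had no R64 coding sequence to fit the trends.

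Replicate numbers are shared by the strains. With the number as a replicate block the counts were 0 members in atg1 against WT, 23 higher and 3 lower in atg41 against WT and 20 and 3 in atg41 against atg1, and the block changed no member's call. Deviations of same-numbered libraries had correlations of -0.166 to 0.164 over 12 pairs, and those of libraries with different numbers -0.151 to 0.213. No strong shared deviation was thus seen. The labels do not say whether a number marks a shared day or batch, and these correlations cannot exclude it. With a library left out a share test compares 3 with 4 libraries and cannot give a p below 0.0571. The smallest value of a member was 106 counts in a library.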
